A study of Mus musculus with 11 samples.

Results

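Potassium channel genes were followed across 11 mouse skin tumours. They were taken as every row of the gene table whose mouse symbol starts with Kcn, a family letter (a, b, c, d, e, f, g, h, j, k, ma, mb, n, q, s, t, u or v) and a digit. The rule found 66 rows of 18756 genes, with 65 distinct symbols, since Kcnh8 is listed under 2 gene IDs. All 66 had a count in at least 1 library, and 59 passed the filter on low counts and were tested. Members measured but not tested included Kcne1, Kcnj4, Kcnj9, Kcng4, Kcnk16 and Kcnd2.

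The tumours were end-point skin tumours of a melanoma model on the C57BL/6 strain, assayed by RNA sequencing of total RNA. They came in 3 genotypes: 5 libraries of GNA11 Q209L Bap1 KO, 2 of GNA11 Q209L and 4 of BRAF V600E Bap1 KO. The first 2 carry the G protein subunit activated in uveal melanoma and blue naevi and the last carries the kinase activated in many skin melanomas, while Bap1 encodes a tumour suppressor that removes ubiquitin from histones. The labels give no age, sex or batch, no promoter that drives a transgene or recombinase, and no statement that each tumour came from its own mouse, so p-values measure only the spread between these libraries. The titles of GNA11 Q209L Bap1 KO replicates 1 and 2 share an identifier.

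Potassium channels let potassium leave or enter the cell along its gradient and so set the membrane voltage. The pore-forming subunits fall into inward rectifiers (Kcnj), tandem-pore leak channels (Kcnk), voltage-gated channels (Kcna, Kcnb, Kcnc, Kcnd, Kcnh and Kcnq) and channels gated by calcium or sodium (Kcnma, Kcnn, Kcnt, with the pH-gated Kcnu1). Kcnf, Kcng and Kcns subunits carry no current alone and modify Kcnb channels, while Kcne and Kcnmb proteins are accessory subunits. In pigmented tissue, Kcnj13 is the inward rectifier on the apical face of the retinal pigment epithelium and is needed for the stripe pattern of zebrafish, and Kcnj10 is found in glia and in the intermediate cells of the inner ear, which are related to melanocytes.

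The stretches of 250 bases before the transcription start are given for the 4 members on which the results below turn, from RefSeq (GRCm38.p6) and in the direction of transcription. Capitals mark the only matches, on either strand, to the motifs CACGTG and CATGTG (E-boxes of the kind bound by the melanocyte factor Mitf), ACAATG (bound by Sox factors) and TGACGTCA (the cyclic AMP response element). The Kcnj13 window lies at chr1:87394730-87394979 on the minus strand, Kcnj10 at chr1:172340960-172341209 on the plus strand, Kcnc1 at chr7:46396218-46396467 on the plus strand and Kcnn4 at chr7:24370013-24370262 on the plus strand.
Kcnj13: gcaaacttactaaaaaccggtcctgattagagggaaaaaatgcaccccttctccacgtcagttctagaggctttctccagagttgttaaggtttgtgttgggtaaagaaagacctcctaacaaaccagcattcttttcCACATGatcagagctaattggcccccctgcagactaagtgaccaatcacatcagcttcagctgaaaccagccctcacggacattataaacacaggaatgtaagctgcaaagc
Kcnj10: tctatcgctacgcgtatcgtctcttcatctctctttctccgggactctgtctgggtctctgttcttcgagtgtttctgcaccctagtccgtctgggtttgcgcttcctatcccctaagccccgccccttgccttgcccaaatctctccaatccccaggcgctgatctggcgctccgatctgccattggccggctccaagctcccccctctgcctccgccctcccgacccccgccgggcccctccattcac
Kcnc1: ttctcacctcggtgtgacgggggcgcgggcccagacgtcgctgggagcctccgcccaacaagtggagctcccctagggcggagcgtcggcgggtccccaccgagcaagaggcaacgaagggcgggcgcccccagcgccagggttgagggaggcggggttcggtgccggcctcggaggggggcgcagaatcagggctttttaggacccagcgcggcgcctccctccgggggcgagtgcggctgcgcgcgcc
Kcnn4: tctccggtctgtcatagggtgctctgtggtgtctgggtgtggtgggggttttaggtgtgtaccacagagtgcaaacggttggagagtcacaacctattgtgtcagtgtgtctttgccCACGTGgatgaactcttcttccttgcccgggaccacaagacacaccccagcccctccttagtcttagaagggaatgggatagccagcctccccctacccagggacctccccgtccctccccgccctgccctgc
The Kcnj13 window holds CATGTG, read as CACATG on the printed strand, starting at -112, and the Kcnn4 window holds CACGTG starting at -133. CATGTG was found in 12.3% of 32851 promoter windows of the same length and in 1 of the 61 windows of members (47 symbols had one). CACGTG was found in 6.02% of all windows and in 4 of the 61, those of Kcne4, Kcnh4, Kcnj2 and Kcnn4. ACAATG was found in 10.7% of all windows and in 4 of the 61, and TGACGTCA in 1.55% and 0. A match describes the letters and not a bound site. The share of G and C was 45.2% for Kcnj13, 62.0% for Kcnj10, 74.4% for Kcnc1 and 58.8% for Kcnn4, against a median of 52.4% over all windows.

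Depth ran from 18338082 to 81035135 counts per library, and 51 to 66 of the members had a count in a library. Values below are CPM, read counts relative to the library's size after TMM scaling, and are listed in the order of the replicate numbers. The floor of 3 counts was worth 0.0337 to 0.166 CPM, depending on the library, and intervals and floors cover counting error only. Melanocyte markers (10 genes) summed to 77806 to 100340 CPM in the GNA11 Q209L Bap1 KO tumours, 69860 and 67845 CPM in the GNA11 Q209L tumours, and 20.2 to 633 CPM in BRAF V600E Bap1 KO. The markers of the melanocyte lineage were thus abundant in the 7 libraries with GNA11 Q209L and scarce in the other 4. BRAF V600E Bap1 KO replicate 4 stood apart with 183470 CPM of salivary gland markers and 6830 CPM of skeletal muscle markers, against 8.66 to 59.1 and 38.1 to 316 CPM in the other 3 libraries of its genotype. Keratinocyte markers summed to 13771 and 5514 CPM in its replicates 3 and 4 and to 1688 CPM in GNA11 Q209L Bap1 KO replicate 1. The Bap1 count did not show the labelled knockout: it was 102, 130, 103, 102 and 170 CPM in the GNA11 Q209L Bap1 KO tumours, 85.1 and 137 CPM in the GNA11 Q209L tumours, and 59.9, 57.6, 71.3 and 54.7 CPM in BRAF V600E Bap1 KO, and no source used here names the deleted exons. A closing header of the deposited table lists BAP1 as NA for BRAF V600E Bap1 KO replicates 2 and 4, and these 4 are called by their label here.

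The potassium channel transcripts of both GNA11 Q209L genotypes were led by a single inward rectifier, and those of BRAF V600E Bap1 KO by other channels that differed from library to library. Kcnj13 (ENSMUSG00000079436) had 374, 558, 174, 622 and 317 CPM in the GNA11 Q209L Bap1 KO tumours, 296 and 125 CPM in the GNA11 Q209L tumours, and 0.0787, 0.375, 0.104 and 0.0437 CPM in BRAF V600E Bap1 KO. It held 37.0% to 69.1% of the family's summed CPM in the GNA11 Q209L Bap1 KO tumours, 52.9% and 20.4% in GNA11 Q209L, and at most 0.167% in BRAF V600E Bap1 KO. The next members by CPM were Kcnc1 in all 5 GNA11 Q209L Bap1 KO libraries, and Kcnj10 and Kcna6 in the 2 GNA11 Q209L libraries. In BRAF V600E Bap1 KO, Kcnn4 led replicates 1 and 2 with 55.9% and 21.7% of the sum, and Kcna1 led replicates 3 and 4 with 43.4% and 27.1%.

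**Figure D1:**
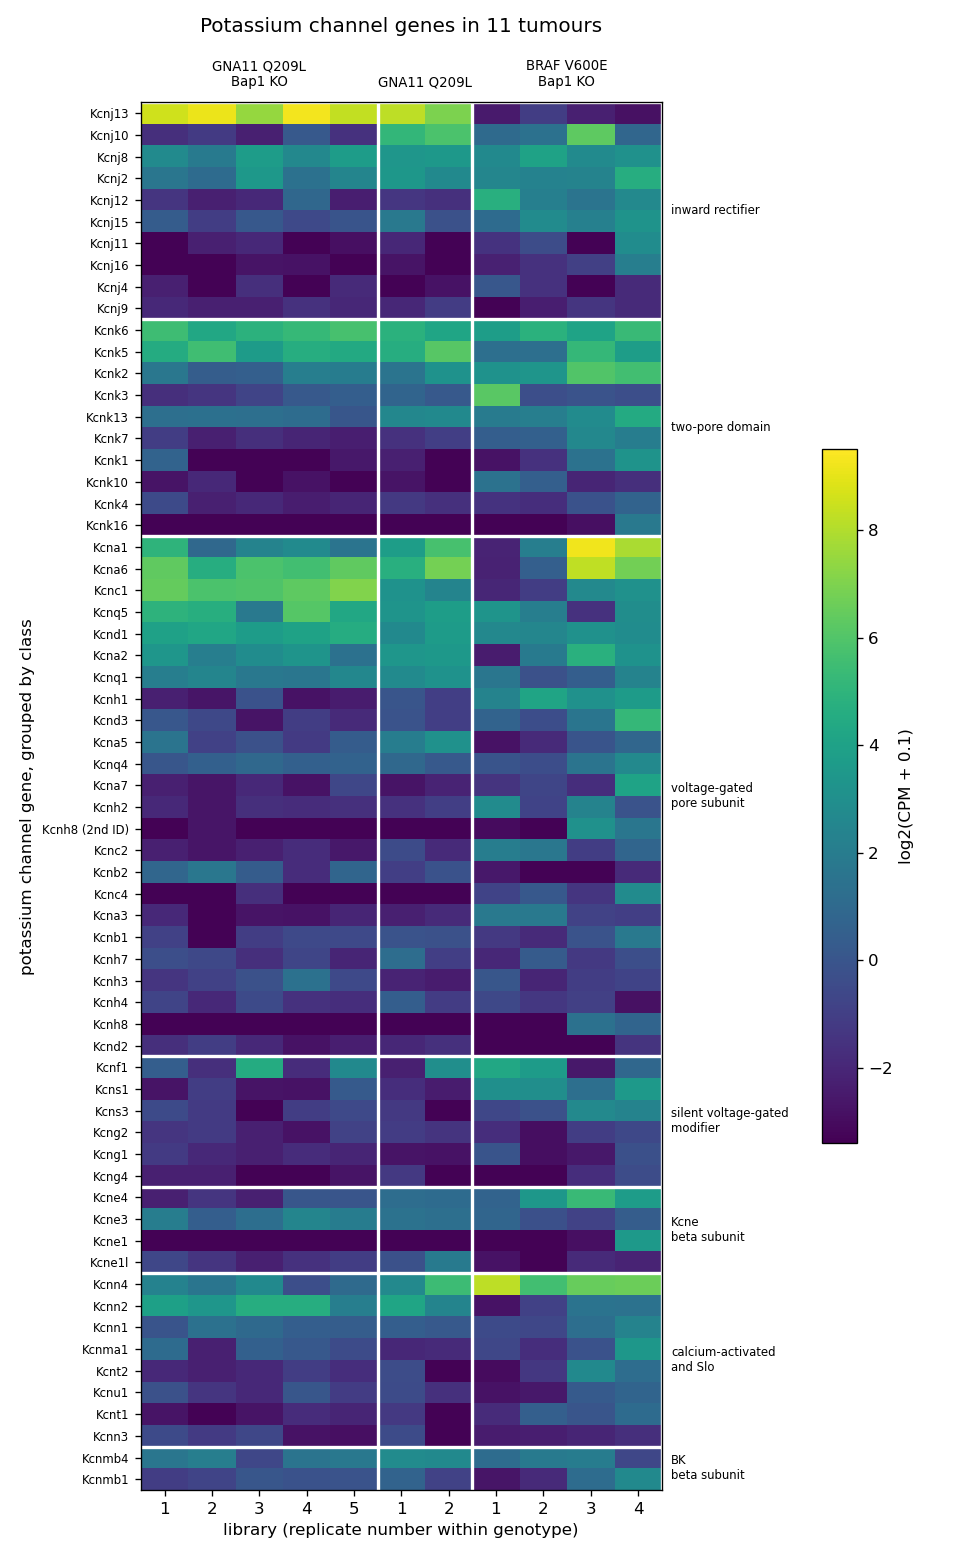
Level of 64 potassium channel genes, tested or not, in each library, as log2(CPM + 0.1), with rows grouped by channel class and columns by genotype. Kcnj13 is bright in the 7 libraries with GNA11 Q209L and dark in the 4 BRAF V600E Bap1 KO libraries.

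Levels of different genes can be compared only per length of transcript, and 64 of the 66 rows had an exon length in GENCODE. Per kilobase, Kcnj13 was highest in GNA11 Q209L Bap1 KO, at 322 ± 143 CPM per kb (SD, n = 5). Kcna6 (9.86 ± 4.05), Kcnk6 (8.95 ± 3.12), Kcnc1 (8.79 ± 3.10) and Kcnk5 (7.57 ± 3.61 CPM per kb) followed, and these 4 neighbours did not differ beyond their spread. In GNA11 Q209L, Kcnj13 averaged 166 ± 95.3 CPM per kb (SD, n = 2), followed by Kcnk5 at 14.2 ± 9.66 and Kcna6 at 11.8 ± 10.3 CPM per kb. In BRAF V600E Bap1 KO the order was Kcna1 at 44.1 ± 59.6, Kcnn4 at 25.9 ± 21.7 and Kcna6 at 17.7 ± 24.7 CPM per kb (SD, n = 4), and these 3 did not differ beyond their spread.

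Summed over all 66 rows, the family had 768, 807, 471, 983 and 722 CPM in the GNA11 Q209L Bap1 KO tumours, 560 and 615 CPM in the GNA11 Q209L tumours, and 530, 224, 1397 and 859 CPM in BRAF V600E Bap1 KO, with overlapping groups. Inward rectifiers summed to 425 ± 175 CPM in the GNA11 Q209L Bap1 KO tumours, 279 ± 109 CPM in the GNA11 Q209L tumours and 60.1 ± 27.3 CPM in BRAF V600E Bap1 KO (SD). Channels gated by calcium or sodium summed to 23.0 ± 10.5, 38.7 ± 15.3 and 143 ± 107 CPM in the same 3 genotypes. Voltage-gated pore subunits summed to between 147 and 275 CPM in the GNA11 Q209L Bap1 KO tumours, 95.9 and 234 CPM in the GNA11 Q209L tumours, and between 46.8 and 1004 CPM in BRAF V600E Bap1 KO.

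**Figure D2:**
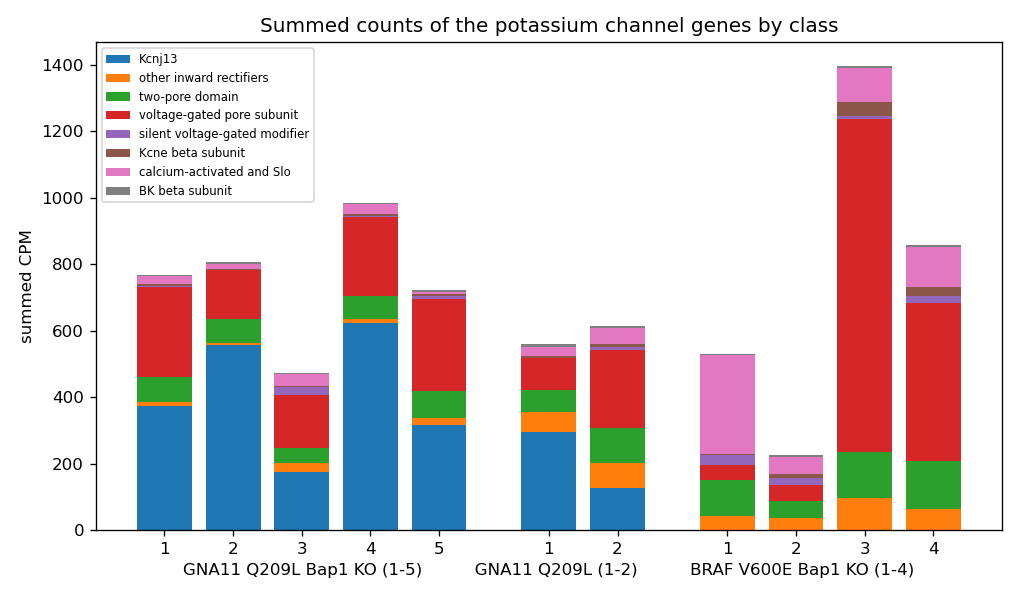
Summed CPM of each channel class in each library, stacked, with Kcnj13 drawn apart from the other inward rectifiers and the genotypes side by side. Kcnj13 and the other inward rectifiers together make the largest part in GNA11 Q209L Bap1 KO and GNA11 Q209L replicate 1, and the voltage-gated part reaches 1004 CPM in BRAF V600E Bap1 KO replicate 3.

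In GNA11 Q209L Bap1 KO tumours set against GNA11 Q209L tumours, which share the labelled oncogene and differ in the Bap1 label, no channel gene passed the test, while Kcnj10 stood lower and Kcnc1 higher in every Bap1 KO library. Of the 59 members tested, 0 were called by edgeR's quasi-likelihood test at an adjusted p under 0.05, beside 0.0288% of all genes tested. At an unadjusted p under 0.05 there were 9 members, 3 higher and 6 lower, or 15.3% of those tested, beside 11.4% of all genes, 3.84% higher and 7.52% lower. In 4 members every GNA11 Q209L Bap1 KO library was above both GNA11 Q209L libraries and in 9 every library was below, or 6.78% and 15.3%, beside 7.58% and 9.01% of all genes. The median log2 fold change of the members tested was -0.54, and that of all genes was -0.004. DESeq2 called Kcnc1 (adjusted p = 0.037), edgeR fitted to both genotypes alone called Kcnc1 and Kcnj10 (adjusted p = 0.0274 for each), and limma voom called 0, beside 2.48%, 0.422% and 0.0288% of all genes.

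Kcnj10 (ENSMUSG00000044708) had 0.217, 0.332, 0.108, 1.05 and 0.242 CPM in the GNA11 Q209L Bap1 KO tumours, from 2 to 22 counts a library, against 35.0 and 57.7 CPM in the GNA11 Q209L tumours. Every GNA11 Q209L Bap1 KO library was below both GNA11 Q209L libraries. The log2 fold change was -6.89 ± 1.45 (SE), with an unadjusted p of 0.000613 and an adjusted p of 0.14, and was -7.65 without GNA11 Q209L Bap1 KO replicate 4. Its value in BRAF V600E Bap1 KO was 2.01, 2.56, 77.7 and 1.71 CPM, so replicate 3 alone was as high as GNA11 Q209L. Schwann and glial markers (10 genes) summed to 1653 to 2746 CPM in the GNA11 Q209L Bap1 KO tumours, 1675 and 2199 CPM in the GNA11 Q209L tumours, and 113, 394, 3012 and 1375 CPM in BRAF V600E Bap1 KO. They overlapped between both GNA11 Q209L genotypes. Some other marker sums (10 genes each, none at 0) did not overlap and moved with Kcnj10. Fibroblast markers had 507.0 to 2483 CPM in the GNA11 Q209L Bap1 KO libraries against 12324 and 3315 CPM in the GNA11 Q209L pair. In the same order, endothelial markers had 371 to 561 CPM against 1079 and 569 CPM. Those of smooth muscle and pericytes had 239 to 940.4 CPM against 956 and 1085 CPM. Of that 1085 CPM in replicate 2, 876 CPM were Cspg4, which had 73.6 CPM in replicate 1. As mean log2(CPM + 0.1) over each list, endothelium and smooth muscle with pericytes overlapped. GNA11 Q209L replicate 2 had 5.001 and 3.436, against 4.612 to 5.216 and 3.235 to 4.397 in GNA11 Q209L Bap1 KO. Melanocyte marker sums did not overlap either and went the other way, at 77806 to 100340 CPM against 69860 and 67845 CPM. The part of these cells in the members' differences between both GNA11 Q209L genotypes was not tested. In BRAF V600E Bap1 KO the fibroblast sums were 4727, 4360, 19956 and 12953 CPM and the endothelial sums 132, 266, 345 and 318 CPM. That of smooth muscle and pericytes was highest in replicate 4 (961 and 1084 CPM in replicates 3 and 4). Kcnj10 had 1.71 CPM in replicate 4. Replicates 1 and 2 had more fibroblast CPM than GNA11 Q209L replicate 2 (3315 CPM), but 2.01 and 2.56 CPM of Kcnj10 against 57.7 CPM. The part of these cells in the Kcnj10 level of BRAF V600E Bap1 KO replicate 3 was not tested.

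Kcnc1 (ENSMUSG00000058975), a fast voltage-gated channel known from rapidly firing neurons, had 86.2, 58.4, 61.6, 78.0 and 131 CPM in the GNA11 Q209L Bap1 KO tumours against 8.90 and 5.31 CPM in the GNA11 Q209L tumours. The groups did not overlap, and the lowest GNA11 Q209L Bap1 KO library was above the highest GNA11 Q209L library. Its log2 fold change was 3.55 ± 1.36 (SE, unadjusted p = 0.0245, adjusted p = 0.366). Kcnd1, an A-type voltage-gated channel, was also above in every library, with 15.96, 18.9, 13.4, 16.2 and 24.1 CPM in the GNA11 Q209L Bap1 KO tumours against 6.57 and 12.8 CPM in the GNA11 Q209L tumours (log2 0.87 ± 0.39, adjusted p = 0.434). Its log2 fold change was 1.498 without GNA11 Q209L replicate 2, and the lowest under the alternatives was 0.46. Kcnd1 is on the X chromosome. Xist, the RNA of the inactive X, had 695 CPM in GNA11 Q209L Bap1 KO replicate 3 and at most 1.42 CPM in its other libraries, against 358 and 198 CPM in the GNA11 Q209L pair. Kcnh3, a slow channel of the forebrain, had 0.271, 0.442, 0.757, 2.57 and 0.588 CPM against 0.131 and 0.0892 CPM, and the silent subunit Kcng1 had 0.108 to 0.326 CPM against 0.0523 and 0.0446 CPM, in GNA11 Q209L Bap1 KO tumours and in those with GNA11 Q209L. Kcnh3 shares exon sequence with Mcrs1 on the other strand, and strand is not stated, so reads of the pair cannot be told apart. Kcnma1, the large-conductance calcium-activated channel, overlapped (0.111 to 2.06 CPM against 0.157 and 0.178 CPM).

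Among the members lower in GNA11 Q209L Bap1 KO at an unadjusted p under 0.05, Kcnn4, the intermediate-conductance calcium-activated channel, had 4.94, 2.99, 6.49, 0.714 and 1.99 CPM against 6.18 and 42.8 CPM in the GNA11 Q209L tumours. Those ranges overlapped at GNA11 Q209L replicate 1 (log2 -2.84 ± 0.85, adjusted p = 0.268). The size rested on replicate 2 of GNA11 Q209L, with log2 -0.79 without it and -3.65 without replicate 1. The tandem-pore channel Kcnk13 did not overlap, with 2.39, 2.49, 2.38, 2.14 and 0.933 CPM in the GNA11 Q209L Bap1 KO tumours against 5.94 and 6.51 CPM in the GNA11 Q209L tumours (log2 -1.59 ± 0.66, adjusted p = 0.399). The X-linked accessory subunit Kcne1l had 0.108 to 0.543 CPM against 0.785 and 3.52 CPM, and the voltage-gated Kcna5, known from atrial muscle, 0.333 to 2.88 CPM against 4.06 and 8.56 CPM, again in GNA11 Q209L Bap1 KO tumours and in those with GNA11 Q209L. Kcnc2, a relative of Kcnc1, lay lower but overlapped, at 0.0553 to 0.19 CPM against 0.628 and 0.178 CPM. Without GNA11 Q209L replicate 2 the log2 fold changes of Kcne1l and Kcna5 were -1.26 and -1.79, against -2.77 and -2.50 with it, and without replicate 1 that of Kcnc2 was -0.75, against -1.93. Kcnj13 itself overlapped between these genotypes (174 to 622 CPM against 296 and 125 CPM), with a log2 fold change of 0.96 ± 0.66 and an adjusted p of 0.641. Its log2 fold change was 1.71 without GNA11 Q209L replicate 1, and the lowest under the alternatives was 0.52.

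**Figure D3:**
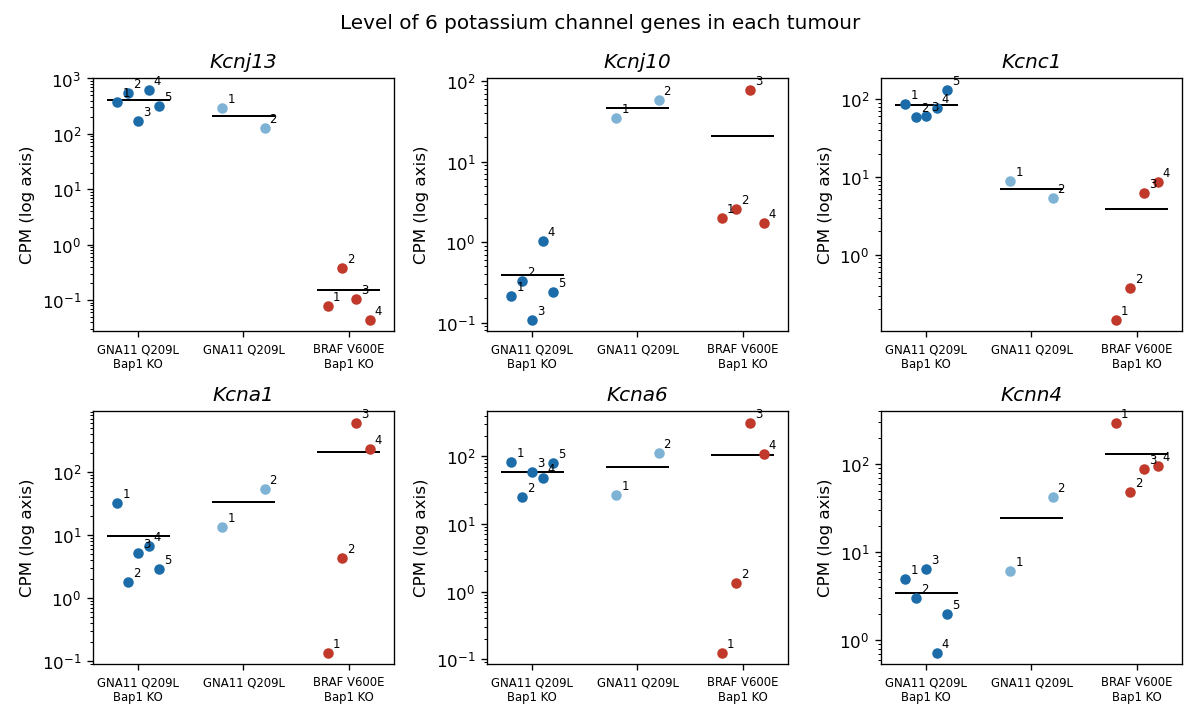
CPM of 6 channel genes in each library on a log axis, with a point for each library and a bar at the genotype mean. Kcnj13 separates the libraries with GNA11 Q209L from BRAF V600E Bap1 KO, and Kcnj10 and Kcnc1 separate GNA11 Q209L Bap1 KO from GNA11 Q209L.

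In GNA11 Q209L Bap1 KO tumours set against BRAF V600E Bap1 KO tumours, which differ in the labelled oncogene, Kcnj13 had the largest fold change of the channel genes that passed, and most of the others that passed were lower. Of the 59 members tested, 30 passed, 6 higher and 24 lower. That is 50.8% of those tested, 10.2% higher and 40.7% lower, beside 41.2% of all genes tested, 16.5% higher and 24.7% lower. In 5 members every GNA11 Q209L Bap1 KO library was above every BRAF V600E Bap1 KO library and in 16 every one was below, or 8.47% and 27.1%, beside 14.7% and 17.2% of all genes. The median log2 fold change was -1.65 over the members and -0.26 over all genes. Without BRAF V600E Bap1 KO replicates 2 and 4, which the table lists as NA for BAP1, 16 members passed, 3 higher and 13 lower, beside 22.0% of all genes.

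By class, 1 inward rectifier rose and 5 fell of 8 tested, 0 tandem-pore channels rose and 5 fell of 9, and 3 voltage-gated pore subunits rose and 9 fell of 24. Of 8 members gated by calcium or sodium 1 rose and 2 fell, of 5 silent subunits 0 rose and 2 fell, and of 3 Kcne subunits 1 rose and 1 fell. Neither of the 2 Kcnmb subunits of the large-conductance channel passed. Kcnmb4 had 0.541 to 4.20 CPM against 0.525 to 3.97 CPM, and Kcnmb1 0.380 to 0.920 CPM against 0.0562 to 6.47 CPM, in GNA11 Q209L Bap1 KO tumours and in BRAF V600E Bap1 KO tumours.

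Kcnj13 averaged 409 ± 182 CPM in the GNA11 Q209L Bap1 KO tumours (SD, n = 5) against 0.15 ± 0.152 CPM in BRAF V600E Bap1 KO (SD, n = 4), where it had 7, 11, 3 and 1 counts. The log2 fold change was 11.42 ± 0.83 (SE, adjusted p = 4.78e-05, edgeR's quasi-likelihood test), and 12.29 without BRAF V600E Bap1 KO replicate 2. Melanocyte marker sums moved with it, as given above, and their part in the difference was not tested. In bulk tumours, fewer cells of a type and less RNA per cell cannot be told apart. Kcnj13 shares exon sequence with Gigyf2 on the opposite strand, whose means were 130.6 CPM for GNA11 Q209L Bap1 KO, 57.37 for GNA11 Q209L and 87.13 for BRAF V600E Bap1 KO. In GNA11 Q209L Bap1 KO against GNA11 Q209L the log2 fold change of Gigyf2 was 1.19 and that of Kcnj13 0.96, and neither passed. Strand is not stated, so reads of the sequence that Kcnj13 and Gigyf2 share cannot be told apart.

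Kcnc1 rose as well, with 58.4 to 131 CPM in the GNA11 Q209L Bap1 KO libraries against 0.146, 0.375, 6.30 and 8.53 CPM in BRAF V600E Bap1 KO. All 5 GNA11 Q209L Bap1 KO libraries were higher (log2 4.45 ± 1.05, adjusted p = 0.00891), and the log2 fold change was 5.20 without BRAF V600E Bap1 KO replicate 4. Kcnd1 had 13.4 to 24.1 CPM in the GNA11 Q209L Bap1 KO tumours against 5.98, 5.62, 8.71 and 7.17 CPM in BRAF V600E Bap1 KO (log2 1.37 ± 0.31, adjusted p = 0.00708). Kcnb2, a delayed rectifier, had 1.74, 3.15, 1.19, 0.19 and 1.62 CPM against 0.0674, 0, 0 and 0.175 CPM (log2 4.67 ± 1.11, adjusted p = 0.00913, and 5.51 without BRAF V600E Bap1 KO replicate 4). The lowest GNA11 Q209L Bap1 KO library, replicate 4, was just above the highest BRAF V600E Bap1 KO library. The small-conductance calcium-activated channel Kcnn2 had 15.3, 10.3, 25.05, 24.4 and 4.29 CPM in the GNA11 Q209L Bap1 KO tumours against 0.0449, 0.443, 2.79 and 2.62 CPM in BRAF V600E Bap1 KO (log2 3.44 ± 1.04, adjusted p = 0.0233, and 0.0541 without BRAF V600E Bap1 KO replicate 2). Kcne3, a partner of Kcnq1 in epithelia, overlapped at 4.07, 1.27, 2.33, 5.47 and 3.92 CPM against 1.65, 0.750, 0.453 and 1.22 CPM (log2 1.73 ± 0.54, adjusted p = 0.0272). Its call was lost without GNA11 Q209L Bap1 KO replicate 1 (0.0522) or BRAF V600E Bap1 KO replicate 2 (0.064) or 3 (0.0639), as adjusted p. Without the libraries listed NA for BAP1 the calls of Kcnd1 (0.0546), Kcnn2 (0.0945) and Kcne3 (0.139) were lost.

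Kcnn4 had the smallest p of the members that fell. It had 0.714 to 6.49 CPM in the GNA11 Q209L Bap1 KO tumours against 296, 48.7, 89.2 and 95.7 CPM in BRAF V600E Bap1 KO, and every GNA11 Q209L Bap1 KO library was lower. The log2 fold change was -5.28 ± 0.83 (adjusted p = 0.00156), or -4.52 without BRAF V600E Bap1 KO replicate 1. Kcnn4 sets the volume of red blood cells and the voltage of activated T cells and of secretory epithelium. T cell markers (10 genes) summed to 10.5 to 21.0 CPM in the GNA11 Q209L Bap1 KO tumours and 19.0, 73.3, 20.9 and 24.4 CPM in BRAF V600E Bap1 KO. Macrophage markers (9 of 10 in the table) summed to 208.7 to 1103 CPM and to 2721, 2699, 706 and 1590 CPM. Within BRAF V600E Bap1 KO, T cell markers were highest in replicate 2, where Kcnn4 was lowest. Macrophage markers were highest in replicate 1, where Kcnn4 was highest. The part of either cell type in the Kcnn4 level was not tested.

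Of the inward rectifiers that fell, Kcnj10 was at 0.108 to 1.05 CPM in the GNA11 Q209L Bap1 KO tumours against 2.01, 2.56, 77.7 and 1.71 CPM in BRAF V600E Bap1 KO. All libraries of GNA11 Q209L Bap1 KO were lower, and the size rested on BRAF V600E Bap1 KO replicate 3: the log2 fold change was -5.75 ± 1.32 (adjusted p = 0.00782), -2.43 without that library (adjusted p = 0.0134) and -3.83 by limma voom (adjusted p = 0.0629), while DESeq2 gave no adjusted p. It was -6.42 without GNA11 Q209L Bap1 KO replicate 4. Kcnj16, which forms channels together with Kcnj10 and carries no current alone, had 2 counts in all GNA11 Q209L Bap1 KO libraries, and the mean CPM of BRAF V600E Bap1 KO was 83.8 times the CPM that these 2 counts make over the pooled library sizes, with a counting interval of 23.2 to 692. In BRAF V600E Bap1 KO it had 0.112, 0.239, 0.418 and 4.24 CPM, highest in the library with the salivary and muscle markers (log2 -5.89, adjusted p = 0.0102, log2 -5.31 without GNA11 Q209L Bap1 KO replicate 5 and -3.64 by limma voom). The ratio rested on that library: without replicate 4, a value added after seeing the data, the mean was 0.256 CPM and the ratio 17.1, with a counting interval of 4.75 to 142. Kcnj16 did not reach the low-count filter without BRAF V600E Bap1 KO replicate 3 or 4, so no test was made there. Kcnj12, a strong rectifier of muscle, had 0.271, 0.111, 0.162, 1.76 and 0.104 CPM in the GNA11 Q209L Bap1 KO tumours against 26.1, 4.33, 2.89 and 6.38 CPM in BRAF V600E Bap1 KO (log2 -4.37 ± 1.03, adjusted p = 0.0088). That was -5.87 without GNA11 Q209L Bap1 KO replicate 4 and -3.24 without BRAF V600E Bap1 KO replicate 1. Kcnj15, a rectifier of kidney and secretory epithelium, had 0.387 to 1.19 CPM in the GNA11 Q209L Bap1 KO tumours against 2.02 to 9.27 CPM in BRAF V600E Bap1 KO (log2 -2.81 ± 0.61, adjusted p = 0.00596, and 0.0563 without the libraries listed NA for BAP1). Kcnj8, the vascular subunit of the ATP-sensitive channel, did not pass (3.54 to 13.2 CPM against 6.54 to 16.4 CPM, adjusted p = 0.795).

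Among the voltage-gated members that fell, Kcnh1, a channel of the brain found again in many tumours, had 0.109, 0.0553, 0.811, 0.0476 and 0.0864 CPM in the GNA11 Q209L Bap1 KO tumours against 5.15, 17.2, 8.67 and 12.8 CPM in BRAF V600E Bap1 KO. Replicate 3 was the highest of GNA11 Q209L Bap1 KO and still below every BRAF V600E Bap1 KO library (log2 -5.65 ± 0.91, adjusted p = 0.0017, and -7.05 without it). Kcnh2, the channel that ends the cardiac action potential, had 0.0553 to 0.225 CPM against 7.02, 0.477, 4.98 and 0.831 CPM (log2 -4.24 ± 0.83, adjusted p = 0.00405, and -3.57 without BRAF V600E Bap1 KO replicate 1). Kcna3, known from T cells and macrophages, had 0 to 0.163 CPM against 3.39, 3.41, 0.453 and 0.393 CPM (log2 -4.44 ± 0.93, adjusted p = 0.00526). It was higher in BRAF V600E Bap1 KO replicates 1 and 2, where macrophage markers summed to 2721 and 2699 CPM, than in replicates 3 and 4, with 706 and 1590 CPM. T cell markers summed to 19.0, 73.3, 20.9 and 24.4 CPM in replicates 1 to 4 and so were high in replicate 2 alone, and the part of either cell type was not tested. Kcnc2 (0.0553 to 0.19 CPM against 0.383 to 4.14 CPM, adjusted p = 0.00227) fell, while its relative Kcnc1 rose.

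Tandem-pore channels that fell included Kcnk2, a channel opened by stretch and lipids, at 3.20, 1.22, 1.30, 4.28 and 3.94 CPM in the GNA11 Q209L Bap1 KO tumours against 9.09, 10.1, 64.2 and 47.9 CPM in BRAF V600E Bap1 KO (log2 -3.55 ± 0.71, adjusted p = 0.00448). Kcnk7, a relative with no known current of its own, had 0.104 to 0.380 CPM against 1.27 to 6.09 CPM (log2 -4.07 ± 0.67, adjusted p = 0.00186). Kcnk13 had 0.933 to 2.49 CPM against 3.85, 4.26, 7.0 and 22.5 CPM (log2 -2.19 ± 0.57, adjusted p = 0.0129). Without BRAF V600E Bap1 KO replicate 4 its log2 fold change was -1.30 (adjusted p = 0.0402), and without the libraries listed NA for BAP1 the call was lost (adjusted p = 0.0707). The leak channels Kcnk6 (20.1 to 53.3 CPM against 13.7 to 41.1 CPM, adjusted p = 0.254) and Kcnk5 (12.9 to 46.1 CPM against 2.42 to 37.1 CPM, adjusted p = 0.371) were among the more abundant members per length and did not pass.

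Of the accessory and silent subunits, Kcne4, an inhibitor of several voltage-gated channels, had 0.109, 0.276, 0.108, 0.952 and 0.899 CPM in the GNA11 Q209L Bap1 KO tumours against 1.53, 10.6, 39.9 and 13.3 CPM in BRAF V600E Bap1 KO (log2 -5.07 ± 0.97, adjusted p = 0.00368, and -4.14 without BRAF V600E Bap1 KO replicate 3). Kcns1, a silent subunit known from sensory neurons, had 0.0476 to 1.09 CPM against 7.99, 7.63, 2.40 and 11.7 CPM (log2 -4.41 ± 0.97, adjusted p = 0.00639, and -5.66 without GNA11 Q209L Bap1 KO replicate 5). The silent Kcnf1 varied within genotypes (0.19 to 23.4 CPM in the GNA11 Q209L Bap1 KO tumours, 0.0696 to 20.04 CPM in BRAF V600E Bap1 KO) and did not pass. A further 9 members that fell were Kcnk3, Kcnk10, Kcnt1, Kcnj11, Kcns3, Kcna7, Kcnd3, Kcnc4 and the second Kcnh8 ID, with adjusted p from 0.0141 to 0.047. In all of these but Kcnc4 the groups overlapped. With each library of the 2 genotypes left out in turn, Kcnk10, Kcnt1 and Kcnc4 kept their call wherever they were tested, with log2 fold changes of -4.43, -3.52 and -5.73. Kcnk10 did not reach the low-count filter without BRAF V600E Bap1 KO replicate 1 or 2, as did the second Kcnh8 ID without replicate 3 or 4, Kcna7 without replicate 4 and Kcnj11 without replicate 2 or 4. Kcnk10 was at -5.47 without GNA11 Q209L Bap1 KO replicate 2, and Kcnc4 at -9.17 without GNA11 Q209L Bap1 KO replicate 3 and -3.89 without BRAF V600E Bap1 KO replicate 4. Kcnd3 was lost without BRAF V600E Bap1 KO replicate 4 (log2 -2.02, adjusted p = 0.0734), the second Kcnh8 ID (log2 -7.93) without replicate 2 of GNA11 Q209L Bap1 KO (log2 -9.64, adjusted p = 0.0696), and Kcns3 without 7 of the 9 libraries (adjusted p from 0.0649 to 0.109), all but BRAF V600E Bap1 KO replicates 1 and 2. Kcna7 was lost without any of GNA11 Q209L Bap1 KO replicates 1 to 4 (adjusted p from 0.056 to 0.065) and was at log2 -5.45 without replicate 5, against -4.49 with all, and Kcnj11 without replicates 1, 2, 4 or 5 of it (adjusted p from 0.0585 to 0.0742). Limma voom called Kcnc4 and Kcnk10 alone of these 9. With GNA11 Q209L Bap1 KO replicates 1 and 2 summed into 1 library, Kcnk3, Kcna7, Kcnj11 and Kcns3 were lost (adjusted p from 0.0542 to 0.0812), and without the libraries listed NA for BAP1, Kcnd3 and Kcns3 (0.0707 and 0.0936).

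**Figure D4:**
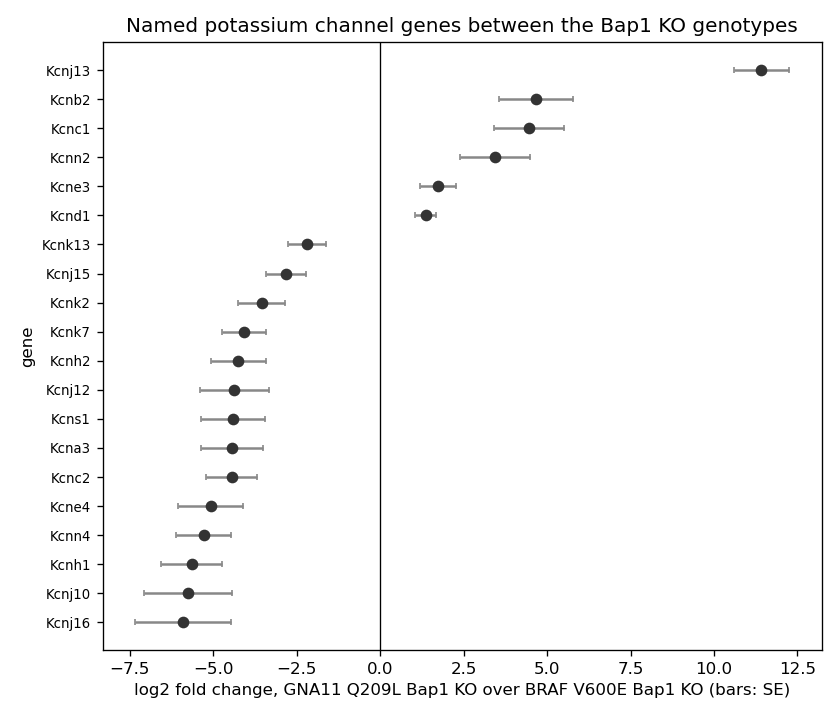
Log2 fold change of 20 members that passed, GNA11 Q209L Bap1 KO over BRAF V600E Bap1 KO, with bars of 1 SE. The 6 members above 0 run from 1.37 (Kcnd1) to 11.42 (Kcnj13), and the 14 below 0 from -5.89 (Kcnj16) to -2.19 (Kcnk13).

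Several channels were high in 1 or 2 of the BRAF V600E Bap1 KO libraries and lower in the others. Kcna1, Kcna6 and Kcna2, which form the axonal voltage-gated channels of myelinated nerve, stood together: Kcna1 had 0.135, 4.29, 606 and 233 CPM, Kcna6 0.124, 1.33, 312 and 107 CPM, and Kcna2 0.0899, 3.61, 27.8 and 8.88 CPM in BRAF V600E Bap1 KO. Replicates 3 and 4 were high for all 3, and these libraries also had the higher Schwann and glial sums and 533 and 232 CPM of Sox10, against 1.93 and 3.58 CPM in replicates 1 and 2, whose part was not tested. In GNA11 Q209L Bap1 KO, Kcna6 had 81.9, 24.7, 58.0, 47.6 and 80.9 CPM and Kcna1 31.9, 1.82, 5.14, 6.76 and 2.90 CPM, so Kcna6 lay between BRAF V600E Bap1 KO replicates 1 and 2 and replicates 3 and 4, and Kcna1 overlapped replicate 2 and lay below replicates 3 and 4. None of the 3 passed (adjusted p = 0.635 for Kcna6, 0.053 for Kcna1 and 0.662 for Kcna2). Both Kcnh8 IDs had counts almost only in BRAF V600E Bap1 KO replicates 3 and 4, at 2.58 and 1.62 CPM for the first ID and 8.78 and 3.06 CPM for the second. The first had 0 counts in GNA11 Q209L Bap1 KO and in BRAF V600E Bap1 KO replicates 1 and 2, so the groups overlapped. It did not pass (edgeR's quasi-likelihood test, adjusted p = 0.0629). Its mean was at least 46.8-fold lower in GNA11 Q209L Bap1 KO against a floor of 3 counts over the group.

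The tandem-pore channel Kcnk3, an acid-sensitive leak channel, had 73.5 CPM in BRAF V600E Bap1 KO replicate 1 and at most 1.60 CPM in each of the other 10 libraries. Without that library its log2 fold change in GNA11 Q209L Bap1 KO against BRAF V600E Bap1 KO was -0.16 (adjusted p = 0.849), against -4.81 with it, and the call was also lost without replicate 1, 2 or 3 of GNA11 Q209L Bap1 KO (adjusted p from 0.0513 to 0.0587). In replicate 4, the library with the salivary and muscle markers, stood the highest values of Kcne1 (11.9 CPM, with 0 or 0.0348 CPM in the rest), Kcnk16 (3.37 CPM), the muscle channel Kcna7 (17.0 CPM), Kcnd3 (36.5 CPM), the ATP-sensitive subunit Kcnj11 (7.26 CPM), Kcnma1 (10.8 CPM) and Kcnk1 (9.14 CPM). The part of these other cells in the values was not tested. Kcnq5, a channel of the M current, was higher in most GNA11 Q209L Bap1 KO libraries, at 30.1, 25.7, 3.46, 68.9 and 19.9 CPM against 9.46, 4.23, 0.244 and 7.61 CPM in BRAF V600E Bap1 KO, and did not pass (log2 2.46 ± 0.94, adjusted p = 0.0558).

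In GNA11 Q209L tumours set against BRAF V600E Bap1 KO tumours, oncogene and Bap1 label differ together so neither is isolated. The comparison shares its BRAF V600E Bap1 KO libraries with the one above. Of the 59 members tested 5 passed, or 8.47%, beside 15.2% of all genes tested, 9.27% higher and 5.93% lower. Kcnj13, at 296 and 125 CPM in the GNA11 Q209L tumours against at most 0.375 CPM in BRAF V600E Bap1 KO, rose (log2 10.47 ± 0.83, adjusted p = 0.000137, 9.72 without GNA11 Q209L replicate 1 and 11.34 without BRAF V600E Bap1 KO replicate 2). Kcne1l rose too, with 0.785 and 3.52 CPM in the GNA11 Q209L tumours against 0.0449, 0, 0.174 and 0.131 CPM in BRAF V600E Bap1 KO (log2 4.63 ± 1.01, adjusted p = 0.0185), but was not called without GNA11 Q209L replicate 2 (log2 3.18, adjusted p = 0.22) and was at 5.34 without replicate 1. Kcns1, Kcnk7 and Kcnh1 fell, with adjusted p of 0.0388, 0.0394 and 0.0495 and log2 fold changes of -5.57, -3.33 and -4.04. With either GNA11 Q209L library left out, or BRAF V600E Bap1 KO replicate 4, all 3 of those calls were lost (adjusted p from 0.0506 to 0.31). The Kcns1 and Kcnh1 calls were also lost without BRAF V600E Bap1 KO replicate 2 (adjusted p of 0.056 and 0.0755) and the Kcnk7 and Kcnh1 calls without replicate 3 (0.0582 and 0.0612). DESeq2 called 22 members, 5 higher and 17 lower, beside 31.3% of all genes, and edgeR fitted to both genotypes alone called 2, beside 2.45%. Kcnj10 did not pass (log2 1.14 ± 1.37, adjusted p = 0.566), and was called as higher without BRAF V600E Bap1 KO replicate 3 (log2 4.46, adjusted p = 0.0113) and by limma voom (3.33, adjusted p = 0.0398).

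Partners of the channels and the pumps that build the potassium gradient were counted from fixed lists. Of 19 channel partners tested, 3 rose and 4 fell in GNA11 Q209L Bap1 KO against BRAF V600E Bap1 KO, and 0 passed against GNA11 Q209L. All genes stood at 16.5% higher and 24.7% lower in the first comparison and 0.0288% called in the second, and nothing particular to the partners, or to the pumps that follow, is read from these counts. The voltage-gated beta subunit Kcnab2 rose, at 48.2 to 96.2 CPM against 9.99 to 22.2 CPM (log2 2.10 ± 0.35, adjusted p = 0.00211), as did the lysosomal potassium channel Tmem175, at 27.9 to 34.2 CPM against 13.1 to 19.7 CPM (adjusted p = 0.00431). The beta subunit Kcnab1 fell, at 0.476 to 1.22 CPM against 40.3, 2.49, 2.99 and 5.86 CPM (adjusted p = 0.00729). Of 19 pump and cotransporter genes tested, 4 rose and 6 fell against BRAF V600E Bap1 KO and 0 passed against GNA11 Q209L. Of 8 transport genes of the retinal pigment epithelium, where Kcnj13 is known to work, 2 rose (Kcnj13 and Ttr) and 3 fell (Lrat, Cldn19 and Clcn2) against BRAF V600E Bap1 KO, where 41.2% of all genes passed and Kcnj13 is itself a channel member.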

How the data were processed

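Total RNA of 11 tumours was sequenced from libraries made by a standard Illumina method, per the labels, and strand is not stated there. The authors deposited one table of estimated counts per gene (expected counts, all whole numbers, not normalised), made after alignment with STAR to mm9, per the submitters' processing notes. No source used here gives the counting program, its annotation or the STAR version. Repeated lines (7) were dropped and transgene lines (6) left out, and 18756 genes remained.

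Genotypes were taken from the labels. Counts were fitted with edgeR 4.0.16 (R 4.3.3): TMM scaling, the default filter on low counts by genotype, all 11 libraries with genotype means, the quasi-likelihood test, two-sided, and Benjamini-Hochberg adjustment over 17350 genes at a threshold of 0.05. Fold changes are the first-named genotype over the other, on the log2 scale with SE. The procedure was tested on simulated data. Alternatives were DESeq2 size factors, no low-count filter, DESeq2 1.42.0, limma 3.58.1 voom, both genotypes alone, libraries with a shared identifier summed and leaving out each library. Leaving out both libraries listed NA for BAP1 was added after seeing the data.

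Named members were Kcnj13 and Kcnj10, those that passed (up to 15 each way by p), the 6 higher and 6 lower by p in GNA11 Q209L Bap1 KO against GNA11 Q209L, and the 3 of each class with the highest mean CPM. Other members were named for their values, and a few genes of the family and lists are not reported here. The members and lists were chosen with earlier results of these data known. Exon lengths are GENCODE vM21 and promoters RefSeq GRCm38.p6, neither the build of the counts, and no promoter of mouse chromosomes left out by rule is given. Depth limits precision through the floor of 3 counts per library. No columns were left unmapped.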

Additional observations from a re-analysis of the deposited data

Results flagged for a closer look

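For the named members, the libraries of each genotype with 4 or 5 of them were checked for a library set far apart from the rest by Dixon's criterion. Of 73 groups, 13 held such a library. The criterion marks about 1 in 20 groups of normally distributed values. CPM were checked untransformed and cannot go below 0, so the 13 cannot be set against that rate. All 13 but Kcnk13 in GNA11 Q209L Bap1 KO replicate 5 were on the high side. The members of a channel family and the libraries are shared between these groups, so they are not independent.

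In GNA11 Q209L Bap1 KO, Kcna1 in replicate 1 was at 31.9 CPM, with 6.76 CPM next. Replicate 3 was high for Kcnf1 (23.4 CPM, next 6.499 CPM) and Kcnh1 (0.811 CPM, next 0.109 CPM). Replicate 4 was high for Kcnh3 (2.57 CPM), Kcnj10 (1.05 CPM) and Kcnj12 (1.76 CPM). Kcnk13 in replicate 5 was low, at 0.933 CPM, with 2.14 CPM next.

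In BRAF V600E Bap1 KO, Kcnj10 in replicate 3 was at 77.7 CPM, with 2.56 CPM next, and Kcnj12 in replicate 1 was at 26.1 CPM, with 6.38 CPM next. Replicate 4, the library with salivary gland and muscle markers, was high for Kcne1 (11.9 CPM), Kcnj16 (4.24 CPM), Kcnk13 (22.5 CPM) and Kcnma1 (10.8 CPM). The part of those other cells was not tested.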

How the results depend on the processing

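For GNA11 Q209L Bap1 KO against GNA11 Q209L the count of members called was 0. It was 1 (1 higher) with DESeq2 and 2 (1 higher, 1 lower) with both genotypes alone, beside 2.48% and 0.422% of all genes. It was 0 under every other alternative that kept both GNA11 Q209L libraries, beside at most 0.0288% of all genes. For GNA11 Q209L Bap1 KO against BRAF V600E Bap1 KO it was 30 (6 higher, 24 lower), beside 41.2% of all genes. It was 24 to 31 (4 to 7 higher, 18 to 25 lower) when a library was left out, beside 31.4% to 41.8% of all genes. It was 22 to 30 under the other alternatives of the fit, beside 35.2% to 46.7%. Without the libraries listed NA for BAP1, an alternative chosen after seeing the data, it was 16 (3 higher, 13 lower), beside 22.0%. For GNA11 Q209L against BRAF V600E Bap1 KO it was 5 (2 higher, 3 lower), 22 (5 higher, 17 lower) with DESeq2, 8 (5 higher) with limma voom, 2 (1 higher, 1 lower) with both genotypes alone, 2 (1 higher, 1 lower) without the libraries listed NA for BAP1, and 1 to 6 (1 to 4 higher, 0 to 3 lower) when a library was left out. Beside these counts, 15.2% of all genes passed in the main fit, 31.3% with DESeq2 and 2.45% with both genotypes alone. With limma voom 2599 of 17350 genes passed, against 2637 in the main fit. The share was 5.16% without the libraries listed NA for BAP1, and 10.2% to 16.7% with 1 BRAF V600E Bap1 KO library left out. Single members had 682 values under the alternatives, with 6 more left out because DESeq2 gave no adjusted p. Of these 682, 608 kept their direction and side of the threshold, 69 lost the call, 5 gained it and 0 changed sign. These values cover only members that were named or called in the main fit. An alternative in which a member did not reach the low-count filter gave no value and is not counted as a lost call. Limma voom moved the median of all genes by 0.11 against BRAF V600E Bap1 KO in GNA11 Q209L Bap1 KO and by 0.14 in GNA11 Q209L. Leaving out the libraries listed NA for BAP1 moved these medians by 0.13 and 0.11. Leaving out GNA11 Q209L replicate 1 moved the median by -0.28 in GNA11 Q209L against BRAF V600E Bap1 KO. It moved it by 0.11 in GNA11 Q209L Bap1 KO against GNA11 Q209L. The causes of these shifts were not tested. With 2 GNA11 Q209L libraries, leaving one out leaves a lone library assumed to vary like the other genotypes. Members with few counts, such as Kcnj16, Kcng1 and Kcnc4, are limited by depth. No paired analysis was possible because the labels give no replicate numbers that the genotypes share.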
